A study of Drosophila melanogaster with 4 samples.

Results

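The vacuolar H+-ATPase (V-ATPase) genes of Drosophila melanogaster were followed in ovary RNA, as all genes whose FlyBase symbol begins with Vha. The name table holds 33 such symbols, and 32 of them head a row among the 17773 gene rows of the deposited files. The remaining one, Vha44 (subunit C), was not analysed here. The Vha genes were divided, from general knowledge of the family, into 13 broad subunits that most tissues use and 19 paralogs with a restricted pattern. ATP6AP2, a further V-ATPase accessory gene, no longer carries a Vha symbol and lies outside the rule.

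Both genotypes carried tj-GAL4, a driver active in somatic cells of the ovary, and tubulinGal80ts, a repressor of GAL4 that heat inactivates. The control genotype carried these alone, and the tumor genotype carried UAS-aPKCΔN and UAS-RasV12 as well. Adult females had been kept at 29 °C for 20 days. Control ovaries were dissected to follicles that had not begun yolk uptake, tumors were dissected as well, and both were dissociated with a Bacillus licheniformis protease and filtered to enrich follicle epithelium. Each genotype had 2 libraries, which the series text calls biological replicates, of 41248098 and 50971937 estimated counts in control 1 and 2 and 47512735 and 42739528 in tumor 1 and 2. Counts of Ras85D, a gene that the transgenes drive, were 676 and 215 in the controls and 102550 and 109225 in the tumors, and those of aPKC were 1910 and 2482 against 54944 and 73836. The driver gene tj was read at 15641 and 21837 counts in the controls against 13558 and 11159 in the tumors.

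The V-ATPase is a rotary pump that uses ATP to move protons into lysosomes, endosomes and secretory vesicles, or out of the cell where it sits in the plasma membrane. Its cytosolic V1 sector hydrolyses ATP and turns a central shaft, and its membrane V0 sector carries protons past a rotating ring of c subunits. Lysosomal acidity is needed for protein breakdown and for autophagy, and the pump also takes part in amino acid sensing by TORC1, the growth kinase complex at the lysosome. In flies the transcription factor Mitf switches on V-ATPase genes together with other lysosomal genes, and many subunits have spare gene copies that are used mainly in the testis, the midgut or neurons.

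Most V-ATPase transcripts came from 11 broad subunits, whose log2 fold changes of tumor over control stayed within 0.5 of 0 with TMM scaling. Vha13, the remaining tested broad subunit, lay outside that range on its own count. The paralogs Vha100-1 and Vha100-4, which encode subunit a, and VhaM9.7-c, which encodes subunit e, were called on their own counts and not on counts taken over their loci. Vha100-4 made up 3.19% of the mean count of its locus, so counts over that locus could hardly show its call. Of the 32 V-ATPase genes, 18 passed the filter on low counts and 14 did not. By edgeR's quasi-likelihood test with adjusted p below 0.05, 1 was higher and 5 were lower in tumor, and 12 did not pass. In the same fit 44.6% of all 9402 genes tested passed, 23.4% higher and 21.2% lower. Among the 12 tested broad subunits none was higher and 3 were lower, and among the 6 tested paralogs 1 was higher and 2 were lower. At an unadjusted p below 0.05 the count for broad subunits was 3, the same as after adjustment, with none higher. DESeq2 and limma-voom also called none of the broad subunits higher, while limma-trend on log2(TPM + 1) called 2, scaling to library totals 1 and scaling to ribosomal protein genes 9. The median log2 fold change was -0.24 for the broad subunits and -0.31 for the paralogs, against 0.02 over all genes tested.

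A limit of these files touches several members. For all 32 V-ATPase genes the deposited target length equals the whole gene span, introns included, plus 2000 bases on either side. Targets of neighbours therefore overlap, and reads from one gene can be assigned to another. Of the 32 members 22 have no exon base that lies outside other targets, among them 9 of the 18 tested. Each tested member was therefore also read as a locus sum, in which the counts of every target that holds one of its exons are added. On locus sums 0 members were higher and 6 lower, against 57.4% called over all genes, 29.2% higher and 28.3% lower. Of the 6 calls on a gene's own count, 3 had the same call on the locus sum, those of Vha55, Vha16-1 and Vha13, and 3 did not, those of Vha100-1, Vha100-4 and VhaM9.7-c. Such agreement was fixed in advance for Vha55, whose neighbour Snx3 rounded to 0 counts in every library. Vha16-1 made up 88.9% of its mean locus sum, Vha13 0.71% and Vha100-4 3.19%. The sums for Vha13 and Vha100-4 are thus almost all reads assigned to neighbours and cannot test the gene's own call.

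**Figure D1:**
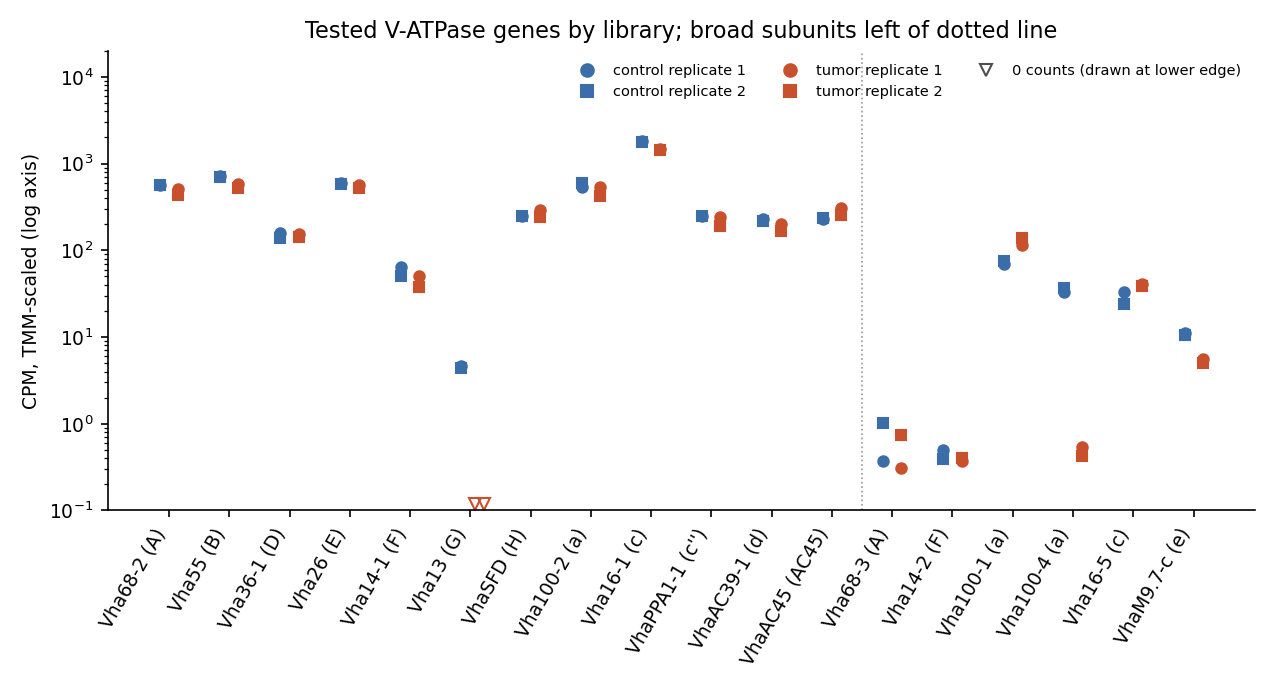
CPM values (counts scaled to library size, with TMM factors, log axis) of the 18 tested V-ATPase genes in each of the 4 libraries, with the subunit in brackets. The broad subunits other than Vha13 lie between 37.6 and 1831 CPM with control and tumor close together, while among the paralogs Vha100-4 drops below 1 CPM in both tumor libraries.

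In the V1 sector, the catalytic head is built from subunits A and B. Vha68-2, which encodes the ATP-hydrolysing subunit A (FBgn0263598, chromosome 2L, 12974322 to 12978607, plus strand), was at 563 and 559 CPM in control and 513 and 435 CPM in tumor, where CPM is the count per library size scaled with TMM factors. Both tumor libraries lay below both controls, but the log2 fold change of -0.24 ± 0.11 (standard error, 2 libraries in each group) did not pass, with an edgeR adjusted p of 0.148. Non-overlapping CPM ranges were common, at 79.6% of all genes tested. Vha55, which encodes subunit B (FBgn0005671, chromosome 3R, 12623762 to 12627829, minus strand), had 29019 and 33777 counts in the 2 controls, compared with 28109 and 23831 in the 2 tumors. On the CPM scale these are 722 and 692 against 582 and 530, so the groups do not overlap. Its level fell by 21.4%, a log2 fold change of -0.35 ± 0.09 with an edgeR adjusted p of 0.043, but under scaling to ribosomal protein genes the value was 0.30. For Vha55, 79.3% of exon bases lie outside other targets. Its locus sum had to give the same value, -0.35, because the neighbour Snx3 rounded to 0 counts in every library. The call remained without tumor 1 and was lost without control 1, control 2 or tumor 2, with adjusted p from 0.103 to 0.185. Over 18 alternatives the adjusted p of Vha55 ranged from 0.000598 to 0.253, and 7 passed.

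The central shaft of V1 is made of subunits D and F. Vha36-1, encoding subunit D, was at 160 and 140 CPM in control and 155 and 143 CPM in tumor. These ranges overlap, and the log2 fold change of -0.01 had a 95% interval from -0.29 to 0.26. Vha14-1, encoding subunit F, stood at 63.5 and 51.1 CPM in control and 49.99 and 37.6 CPM in tumor. Its log2 fold change of -0.39 ± 0.21 was the lowest of the 11 (0.25 under ribosomal scaling), and its edgeR adjusted p was 0.195. All exon bases of both genes lie inside other targets, and their locus sums gave log2 fold changes of 0.07 and -0.15, neither past the threshold.

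The outer stalks hold the head still against rotation and are made of subunits E and G. Vha26, encoding subunit E, was at 592 and 580 CPM in control and 566 and 519 CPM in tumor, a log2 fold change of -0.11 ± 0.09 with an edgeR adjusted p of 0.364. Its locus sum gave -0.26, also not past the threshold. Subunit H, encoded by VhaSFD, joins V1 to V0 and keeps free V1 from wasting ATP. VhaSFD was at 250 and 252 CPM in control and 289 and 244 CPM in tumor, a log2 fold change of 0.09 ± 0.11 with an edgeR adjusted p of 0.554. Tumor 1 was the highest library for VhaSFD and tumor 2 the lowest, so the groups overlap. All exon bases of VhaSFD lie inside other targets, among them that of the cytochrome gene Cyt-c-p, which went from 7662 and 7231 counts to 3763 and 4799. The VhaSFD locus sum was on the other side of 0, at -0.23 with an adjusted p of 0.060.

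Vha13, which encodes the stalk subunit G (FBgn0283536, chromosome 3R, 19643018 to 19644386, minus strand), was the broad subunit with the widest difference on its own count. It had 188 and 217 counts in control and 0 in both tumor libraries, which is at least 70.8-fold lower when 3 counts per library are taken as the floor (edgeR adjusted p = 0.0054). All of its exon bases lie inside the targets of Nup58 and subdued. Nup58, a nuclear pore gene on the opposite strand 639 bases away, had 14404 and 15329 counts in the controls against 12209 and 10141 in the tumors. The mean count of Vha13 over the 4 libraries was 0.71% of the mean locus sum. The locus sum went from 15400 and 16461 counts to 13783 and 11324. This is a log2 difference of -0.42 ± 0.10 with an edgeR adjusted p of 0.017. The size of the difference thus depended on whether reads were taken by gene or by locus, and how many of the locus reads come from Vha13 was not tested.

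In the V0 sector, protons enter and leave through subunit a and ride on the ring of c subunits. Vha16-1, encoding the main c subunit (FBgn0262736, chromosome 2R, 6625242 to 6633090, minus strand), was the most abundant V-ATPase gene, with 73635 and 85960 counts in the 2 controls, compared with 70764 and 64632 in the 2 tumors. Scaled, these are 1831 and 1762 CPM against 1465 and 1436 CPM, and the groups do not overlap. Its level fell by 19.3%, a log2 fold change of -0.31 ± 0.08 with an edgeR adjusted p of 0.044, but under scaling to ribosomal protein genes the value was 0.34 (adjusted p = 0.038). The locus sum gave -0.25 with an adjusted p of 0.047. Leaving out any 1 of the 4 libraries ended the call on the gene's own count, with adjusted p from 0.054 to 0.210, and over all 18 alternatives it ranged from 5.41e-06 to 0.476.

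Vha100-2, encoding the main a subunit, was at 537 and 604 CPM in control and 535 and 428 CPM in tumor. Tumor 1 lay just below control 1, and the log2 fold change of -0.25 ± 0.15 did not pass, with an edgeR adjusted p of 0.236. VhaPPA1-1 encodes c″, the variant c subunit of the ring. It was at 246 and 249 CPM in control and 243 and 192 CPM in tumor, with a log2 fold change of -0.19 ± 0.14 that did not pass (edgeR adjusted p = 0.316). Its locus sum, at -1.31, holds the reads of RpS5b, a ribosomal protein gene that went from 28606 and 27676 counts to 8146 and 5081. VhaAC39-1, encoding subunit d between shaft and ring, was at 228 and 217 CPM in control and 199 and 169 CPM in tumor. Its log2 fold change of -0.28 ± 0.11 did not pass on its own count (edgeR adjusted p = 0.106) and passed on the locus sum (-0.29, adjusted p = 0.047).

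VhaAC45 encodes an accessory glycoprotein of V0 (chromosome 2R, 9207561 to 9209774, plus strand). It was the one broad subunit whose tumor libraries both lay above the controls, at 228 and 239 CPM in control and 309 and 258 CPM in tumor. The log2 fold change of 0.28 ± 0.12 did not pass, with an edgeR adjusted p of 0.116. It passed under scaling to library totals (0.38, adjusted p = 0.044) and on log2(TPM + 1) (0.52, adjusted p = 0.011), and over its 18 alternatives the adjusted p ranged from 0.0035 to 0.359.

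**Figure D2:**
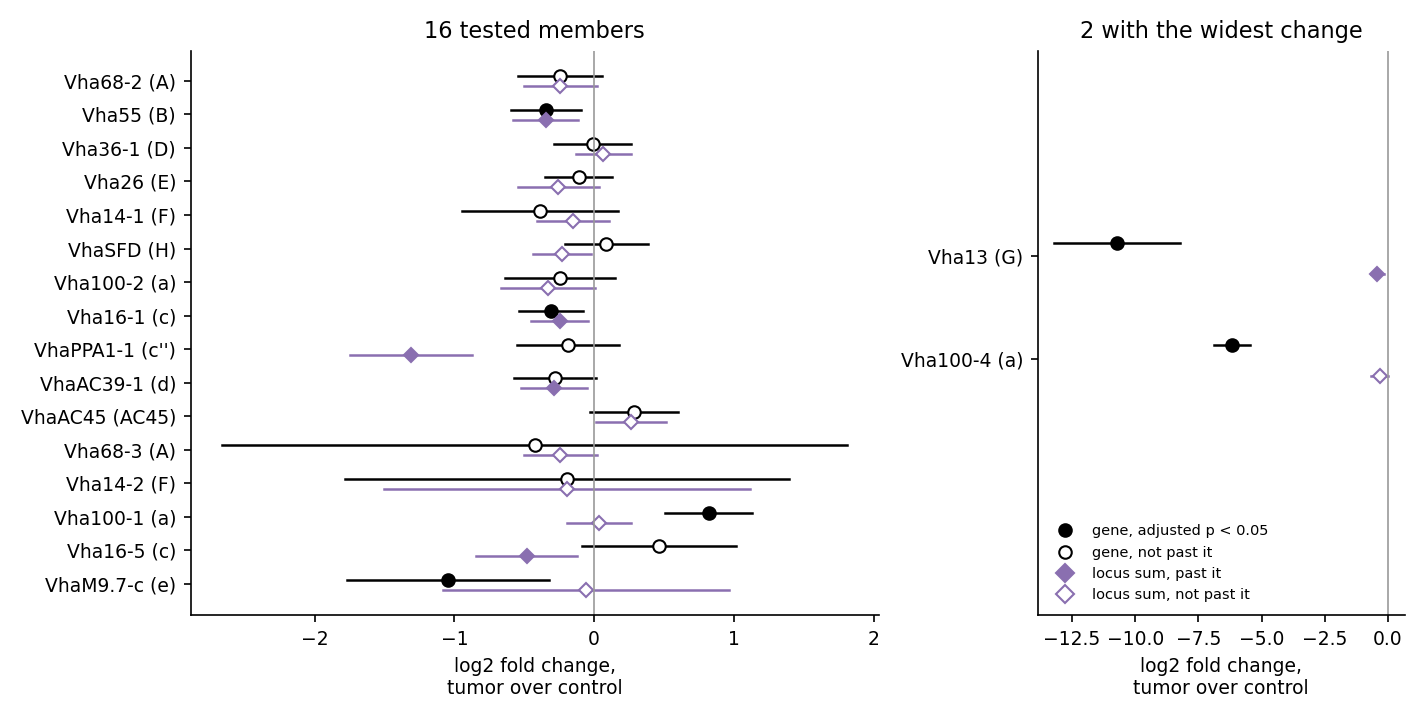
Log2 fold change of tumor over control for the 18 tested V-ATPase genes, with 95% intervals, from the gene's own count (circles) and from its locus sum (diamonds), where filled symbols have an adjusted p below 0.05. Vha55 and Vha16-1 sit at -0.35 and -0.31 on their own counts and at -0.35 and -0.25 on locus sums, while on the locus sum Vha100-1 lies at 0.03, Vha100-4 at -0.34, VhaM9.7-c at -0.06, Vha13 at -0.42 and Vha16-5 at -0.48.

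Seen together, the 11 broad subunits other than Vha13 had log2 fold changes from -0.39 to 0.28, with a median of -0.24. All 11 lay within 0.5 of 0, as did 40.6% of all genes tested, and all 11 intervals lay inside a doubling or halving. Vha13 was left out by name, and with it 11 of the 12 tested broad subunits lay within 0.5 of 0. Of the 11, 9 had negative values. In 8 both tumor libraries lay below both controls and in 1 above, against 38.8% below and 40.8% above among all genes tested. The 11 are abundant genes, and 10 of them exceed at least 86.6% of tested genes in average CPM. Their geometric mean was 343 and 333 CPM in control and 326 and 279 CPM in tumor, so that tumor 2 was lowest and tumor 1 was near the controls. Without tumor 2 the median of the 11 was -0.09, and without tumor 1 it was -0.38. The summed level of all 32 members was 5572 and 5498 CPM in control and 5071 and 4573 CPM in tumor, or 0.543% and 0.526% of all counts against 0.515% and 0.482%.

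The direction of these small values depended on the scale. Scaling to ribosomal protein genes moved the median of all genes to 0.67 and that of the 11 subunits to 0.40, with 9 of the 11 higher. Under library totals the medians were 0.12 and -0.15. On log2(TPM + 1) they were 0.21 and 0.00, where the pseudocount understates changes of low genes. Upper-quartile factors gave -0.09 and -0.35. Relative to the median of all genes, the median of the 11 differed by -0.26 under TMM factors and -0.27 under ribosomal scaling. Such count scalings shift all genes by nearly the same amount, so this difference had to stay similar among them. The difference was -0.08 without tumor 2 and -0.37 without tumor 1.

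**Figure D3:**
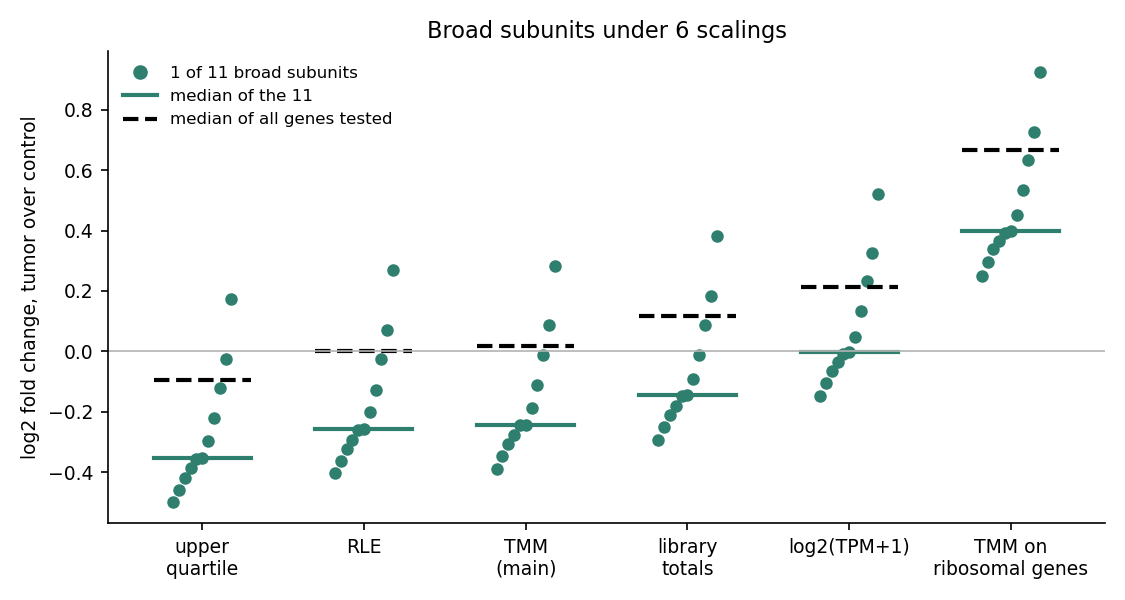
Log2 fold changes of the 11 broad subunits (points, sorted by value) under 6 scalings, with the median of the 11 (solid line) and the median of all tested genes (dashed line). Count scalings shift all genes by nearly the same amount, so both lines had to move together among them. In each scaling the subunit median lies below the median of all genes, as under TMM factors with -0.24 against 0.02.

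The proportions of the 11 subunits within a library do not depend on such scaling. Each level was divided by the geometric mean of the 11 in the same library. On this relative scale VhaAC45 was at 0.664 and 0.717 in control and 0.949 and 0.925 in tumor, a log2 difference of 0.44. VhaSFD went from 0.729 and 0.756 to 0.885 and 0.874, a difference of 0.24. In both genes, as in Vha55, VhaAC39-1 and Vha68-2, the tumor libraries lay apart from the controls by more than the libraries of a group differed. For VhaSFD this rests on a count whose locus sum had the other sign. VhaAC45 made up 95.9% of its mean locus sum. The log2 fold change of that sum, 0.26, thus had to lie close to the gene's own and cannot test it. Vha36-1 also had both tumor values above the controls, at 0.476 and 0.511 against 0.467 and 0.421. Vha14-1, Vha55, Vha16-1, VhaAC39-1 and Vha68-2 had both tumor values below the controls, with log2 differences from -0.23 for Vha14-1 to -0.09 for Vha68-2. Vha100-2, VhaPPA1-1 and Vha26 overlapped. Groups lying apart was common on the CPM scale, at 79.6% of all genes tested, and its share on this relative scale was not computed. As plain count ratios, VhaAC45 was at 31.5% and 34.5% of Vha55 in control and 53.2% and 48.8% in tumor. VhaSFD was at 34.6% and 36.3% of Vha55 in control and 49.6% and 46.1% in tumor. With 2 libraries per group a two-sided exact permutation test of such a ratio cannot give a p under 0.333, so these ratios are given without a test.

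**Figure D4:**
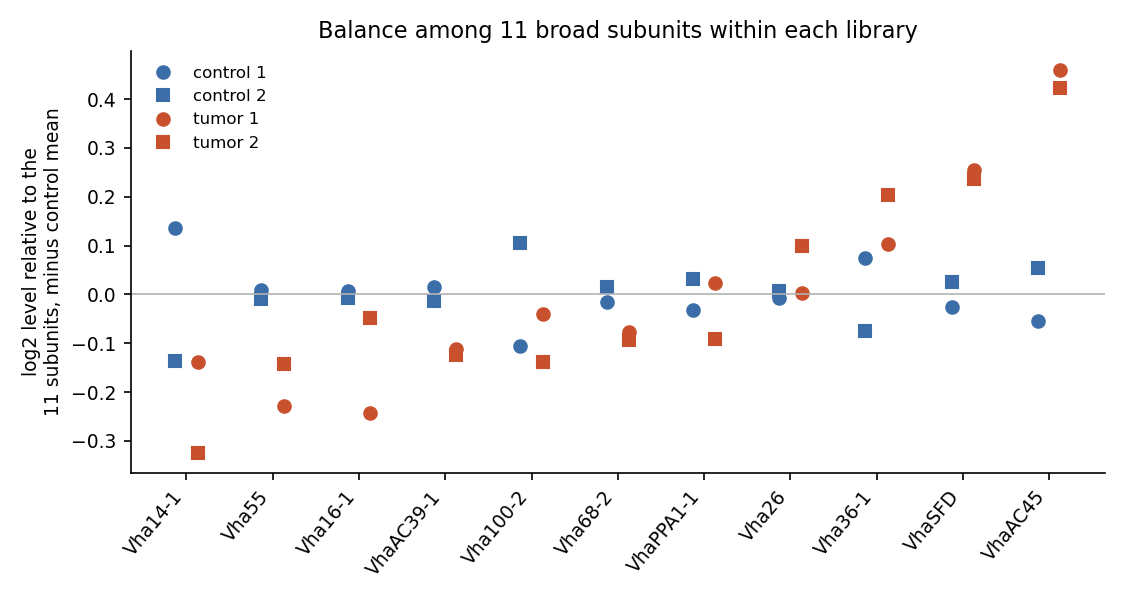
Log2 level of each of the 11 broad subunits relative to their geometric mean in the same library, minus the mean of the 2 control libraries, with control in blue and tumor in orange. VhaAC45 stands apart at the right, with a tumor minus control difference of 0.44. VhaSFD, at 0.24, is close in size to Vha14-1 at the left, at -0.23.

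Between genes, levels were compared as CPM per kilobase of annotated exon. The c subunit gene Vha16-1 led with a mean of 526 CPM per kilobase over the 4 libraries, in a pump that holds several c subunits. Vha55 followed at 226, Vha26 at 193, Vha68-2 at 187, VhaPPA1-1 at 171, Vha100-2 at 163 and Vha36-1 at 141 CPM per kilobase. Vha26 ranged from 187 to 197 and Vha68-2 from 166 to 199 over the libraries, so these neighbours in the order overlap. The remaining ones were VhaAC45 at 129, VhaAC39-1 at 113, VhaSFD at 91.4 and Vha14-1 at 76.3 CPM per kilobase. Vha13 at 2.33 and VhaM9.7-b at 0.12 CPM per kilobase lay far below the others, although each encodes a subunit of the same pump. All exon bases of both lie inside other targets, and they made up 0.71% and 0.04% of their mean locus sums. How far these levels and this order rest on the assignment of reads between targets was not tested. On the deposited TPM scale the leading 4 kept their order, and VhaAC45 followed next.

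Subunit a has 5 paralogous genes in the files, and their balance differed between the genotypes on the genes' own counts. Vha100-1, known in flies for its role at synapses (FBgn0028671, chromosome 3R, 29131193 to 29137980, plus strand), had 2771 and 3644 counts in the controls against 5605 and 6194 in the tumors. At 68.9 and 74.7 CPM against 116 and 138 CPM the groups do not overlap. Its level rose by 76.6%, a log2 fold change of 0.82 ± 0.11 with an edgeR adjusted p of 0.0088. Vha100-4, known from the acid-secreting region of the fly midgut (FBgn0038613, chromosome 3R, 18386841 to 18389805, minus strand), had 1334 and 1797 counts in the 2 controls, compared with 26 and 19 in the 2 tumors. It fell by 6.18 ± 0.26 on the log2 scale, with an edgeR adjusted p of 0.0012. Vha100-3 and Vha100-5 rounded to 0 in every library.

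As shares of the a family per exon kilobase, Vha100-2 held 83.4% and 83.8% in control and 82.4% and 76.0% in tumor. Vha100-1 held 10.5% and 10.2% in control and 17.5% and 23.9% in tumor, both above the controls. Vha100-4 held 6.09% and 6.03% in control and 0.098% and 0.088% in tumor. Relative to Vha100-2 within a library, Vha100-1 counts were 12.8% and 12.4% in control and 21.7% and 32.2% in tumor.

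Neither Vha100-1 nor Vha100-4 was called on its locus sum. Vha100-4 lies 517 bases from Vha100-2 on the same strand, and all of its exon bases lie inside other targets. Their joint locus had 23108 and 31374 counts in the controls against 25862 and 19276 in the tumors, of whose mean Vha100-4 made up 3.19%, and its log2 fold change was -0.34 ± 0.13 (edgeR adjusted p = 0.081). Even a full loss of Vha100-4 could move so large a sum only a little, so the sum does not test that call. CG14309, a neighbour that shares the Vha100-4 locus, went from 174 and 105 counts to 2 and 0. For Vha100-1, 34.5% of exon bases lie outside other targets. Its neighbour superdeath, 681 bases away on the same strand, went from 3342 and 3200 counts to 74 and 126, and Alg13, which overlaps it by 11 bases on the other strand, went from 0 in both controls to 732 and 409. The Vha100-1 locus sum was 6618 and 7137 counts in the 2 controls, compared with 7310 and 7514 in the 2 tumors, a log2 fold change of 0.03 ± 0.09 with an edgeR adjusted p of 0.772. How the reads of these loci divide between the neighbours was not tested. The Vha100-1 call was also lost without control 1, with an adjusted p of 0.061, and it held under the other 16 of 18 alternatives, with adjusted p from 3.5e-07. That of Vha100-4 held under all 17 alternatives other than the locus sum.

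**Figure D5:**
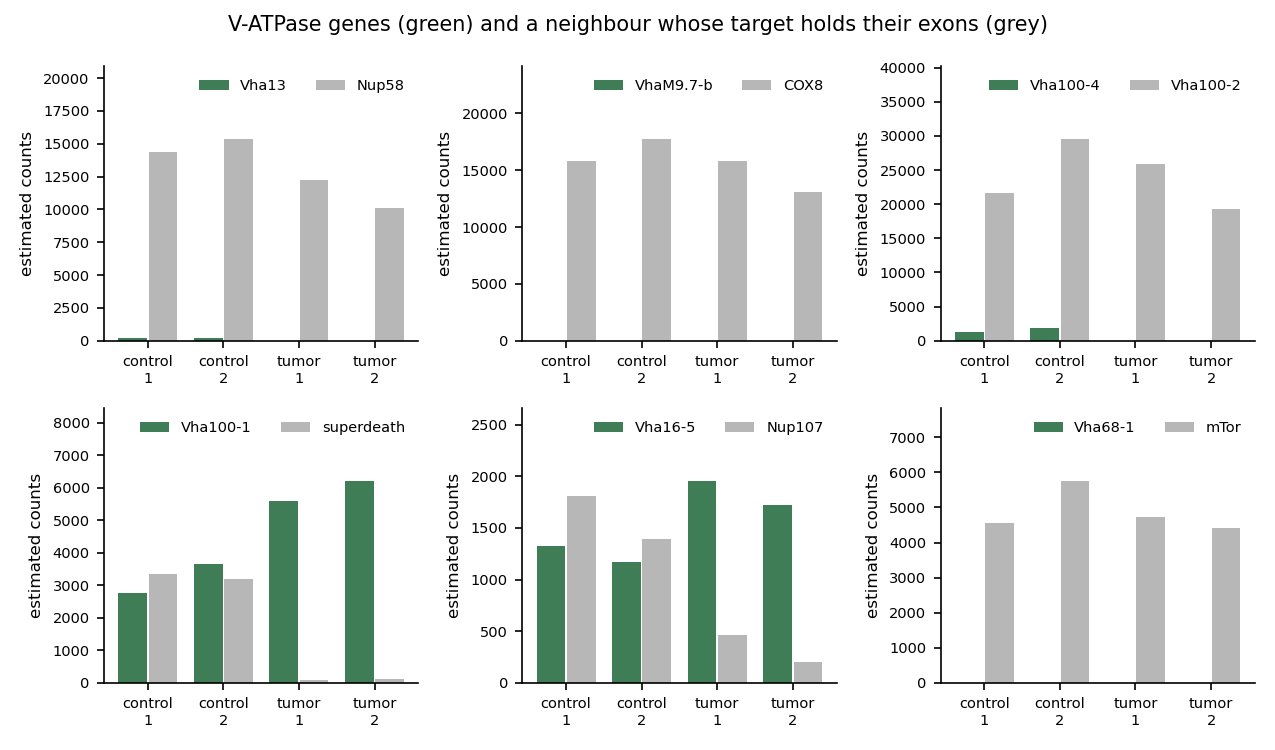
Estimated counts in each library of 6 V-ATPase genes (green bars) and of a neighbour whose target holds their exons (grey bars), on linear axes that start at 0. Vha100-1 and Vha16-5 are higher in tumor where superdeath and Nup107 are lower, and Vha13, VhaM9.7-b and Vha68-1 are at or near 0 beside neighbours with far more counts.

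In the c family no paralog passed the edgeR test on its own count. Vha16-5 (FBgn0032294, chromosome 2L, 10736319 to 10737043, minus strand), a c paralog, had 1328 and 1169 counts in the controls against 1950 and 1722 in the tumors. Its CPM of 33.0 and 24.0 in control and 40.4 and 38.3 in tumor do not overlap, but the log2 fold change of 0.46 ± 0.20 did not pass (edgeR adjusted p = 0.133). It passed under ribosomal scaling (1.11, adjusted p = 0.014) and on log2(TPM + 1) (0.71, adjusted p = 0.041), and over 18 alternatives, of which 4 passed as higher and 1 as lower, the adjusted p ranged from 0.014 to 0.386. Its share of the c family per exon kilobase was 7.11% and 5.46% in control and 10.5% and 10.2% in tumor, with Vha16-1 holding nearly all of the rest. The neighbour Nup107, a nuclear pore gene 247 bases away on the same strand, had 1811 and 1395 counts in the 2 controls, compared with 467 and 205 in the 2 tumors. On the locus sum the direction turned, to -0.48 ± 0.14 with an edgeR adjusted p of 0.034. Vha16-2, Vha16-3 and Vha16-4 had at most 2 counts in any library.

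Subunit e is a small membrane subunit of V0 with 4 genes in the files. VhaM9.7-c (FBgn0028664, chromosome 3L, 4186018 to 4186865, minus strand), a paralog, had 451 and 520 counts in the controls against 267 and 228 in the tumors. At 11.2 and 10.7 CPM against 5.53 and 5.07 CPM the groups lie apart, and its level fell by 51.6% (log2 fold change -1.05 ± 0.27, edgeR adjusted p = 0.038). The gene lies wholly inside the spans of CG18675 and Teh2, and its locus sum had a log2 fold change of -0.06 ± 0.41. Without any 1 of the 4 libraries the call on its own count was lost, with adjusted p from 0.079 to 0.156, against 0.000356 to 0.916 over all 18 alternatives. VhaM9.7-b, the broad e gene (chromosome 3L, 21539862 to 21541215, plus strand), was read at 4 and 0 counts in the controls and at 20 and 3 in the tumors, and did not pass the filter. All of its exon bases lie inside other targets, one of which, COX8 on the opposite strand, had 15819 and 17698 counts in the 2 controls, compared with 15846 and 13108 in the 2 tumors. VhaM9.7-a and VhaM9.7-d had counts in tumor 1 alone, 15 and 7.

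The other tested paralogs were near 0 in both groups. Vha68-3, an A paralog 178 bases from Vha68-2, had 15 and 50 counts in the controls against 15 and 33 in the tumors. Its log2 fold change of -0.43 had an interval from -2.66 to 1.81. A change of either sign and several fold was thus not detectable, given the spread between these libraries. Vha14-2, an F paralog whose exons lie in no other target, had 20 and 19 counts in the 2 controls, compared with 18 and 18 in the 2 tumors, with an interval from -1.78 to 1.39. The main genes held almost all of the reads of these families per exon kilobase. The lowest share in any library was 99.79% of the A family for Vha68-2 and 99.58% of the F family for Vha14-1.

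The 13 paralogs that did not pass the filter include 8 that rounded to 0 in every library, Vha68-1, Vha100-3, Vha100-5, Vha16-3, Vha16-4, VhaPPA1-2, VhaAC39-2 and VhaAC45RP. All but Vha100-5 have no exon base outside other targets, and several lie beside highly counted genes. Vha68-1, an A paralog, neighbours mTor, which had 4556 and 5741 counts in the controls against 4741 and 4402 in the tumors. VhaAC39-2 neighbours unk, at 2256 and 3593 counts in the 2 controls, compared with 4354 and 4280 in the 2 tumors. Vha100-3 lies inside sano, which went from 868 and 1256 counts to 6712 and 11800. A value of 0 in these files does not by itself show that such a paralog is silent. The D paralogs Vha36-3, at 33 and 9 counts in the controls against 2 and 3 in the tumors, and Vha36-2, at 0 and 3 against 7 and 1, were barely read.

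Genes that act on the pump or with it are given by counts and medians under TMM scaling, beside an overall median of 0.02 that ribosomal scaling moves to 0.67. Their counts of calls stand beside 23.4% higher and 21.2% lower among all genes tested, or 44.6% in either direction. Of 4 regulators, 3 were tested. Mitf had 3177 and 3881 counts in the 2 controls, compared with 3390 and 3338 in the 2 tumors, and its log2 fold change of -0.14 ± 0.09, which was 0.52 under ribosomal scaling, did not pass (edgeR adjusted p = 0.258). Rbcn-3A, whose yeast and mammalian relatives help join V1 to V0, fell by 0.53 ± 0.07 on the log2 scale (edgeR adjusted p = 0.0083), from 10309 and 12324 counts to 8364 and 8062, with 0.12 under ribosomal scaling. Its locus sum gave -0.49, and the call on its own count was lost without control 1 or control 2. The partner gene Rbcn-3B was listed at 0 in all 4 libraries, and mtd had a log2 fold change of 0.08 that did not pass on its own count, with a locus sum of 0.73 that did (adjusted p = 0.0015).

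Of 18 tested lysosomal enzymes and membrane proteins, 5 were higher and 3 lower, or 44.4% called, close to the share over all genes. Their median log2 fold change was 0.24, and 3 were higher without control 1 or control 2. The protease gene CtsL1 rose from 8464 and 10210 counts to 25457 and 21507 (log2 fold change 1.26), and the membrane protein gene Lamp1 from 5088 and 6553 to 10614 and 9820 (0.75). On the log2 scale the alpha-mannosidase gene LManI fell by 5.50, with a locus sum of -1.80, and its relative LManII fell by 1.70, with a locus sum of -1.65. Of 22 tested endosome and HOPS genes, which serve traffic to the lysosome, 9 were higher and 3 lower (54.5% called), with a median of 0.40. The count of higher genes was 0 without control 1 or control 2 and 3 without tumor 1, and that of lower genes was 0 without either control. Among them lt, encoding the HOPS subunit Vps41, rose by 1.23 on the log2 scale, Vps16A by 0.55 and the recycling gene Rab11 by 0.51, while Vps39 fell by 0.54 (0.12 under ribosomal scaling). The Rab11 and Vps39 values were 0.09 and -0.15 on locus sums, neither past the threshold.

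Of 18 tested TORC1 and Ragulator genes, 5 were higher and 2 lower, or 38.9% called, below the share over all genes. Their median log2 fold change was 0.19, and without any 1 library 2 to 3 were higher and 1 was lower. On the log2 scale S6k, a kinase that TORC1 activates, rose by 0.54, and Thor, an inhibitor of translation that TORC1 holds in check, rose by 1.31. The amino acid transporter gene slif fell by 5.63, with a locus sum of -1.89. Lamtor1, a Ragulator gene, went from 0 in both controls to 75 and 105 counts, with a locus sum of 0.05 that did not pass. Of 17 tested autophagy genes, 7 were higher and 3 lower (58.8% called), with a median of 0.16, and 3 were higher without control 1, control 2 or tumor 1. The cargo receptor gene ref(2)P rose by 1.31 and the autophagosome gene Atg8a by 1.54, with locus sums of 1.44 and 0.41 that both passed. Atg6 went from 0 in both controls to 2042 and 1774 counts and Atg18b from 307 and 269 to 0 in both tumors, but on locus sums both turned, to -0.43 and 0.32. Of 14 tested carriers of protons, bicarbonate and chloride, 2 were higher (0 without control 2, tumor 1 or tumor 2) and 5 lower, with a median of -0.12 that was 0.53 under ribosomal scaling and 0.09 on log2(TPM + 1). Among them the Na+/H+ exchanger gene Nhe3 fell by 0.83, with the same value on its locus sum, and the antiporter gene Nha1 fell by 4.92, with a locus sum of -1.07. The chloride channel gene ClC-a fell by 1.74, with a locus sum of -0.36, and the carbonic anhydrase gene CAH2 fell by 4.09 on its own count but had a locus sum of 1.10.

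Markers of several cell types differed between the genotypes as well, again beside 23.4% higher and 21.2% lower over all genes. Of 13 tested germline markers 10 were lower and 0 higher (8 lower and 2 higher on locus sums), and their summed level was 1667 to 1717 CPM in control and 902 to 967 CPM in tumor. In tumor the gene piwi, which was not called, held most of this sum, with 27199 and 21958 counts against 14700 and 20860 in control. Whether the piwi reads came from germline or somatic cells was not tested, so the sum may not follow germline cells. Follicle cell markers had 3 higher and 5 lower of 10 tested, at 4188 to 4314 against 1734 to 1967 CPM, with the yolk protein genes Yp1 and Yp2 the highest of the list in control. Hemocyte markers had 6 of 10 higher and 0 lower (8 higher and 1 lower on locus sums), at 180 to 268 against 491 to 509 CPM. In every library most of the hemocyte sum was Ppn, which was not called. Muscle sheath markers had 4 of 9 lower (5 lower and 1 higher on locus sums), at 413 to 749 against 201 to 298 CPM. No marker of these 4 lists was at 0 in all libraries. Other lists covered neurons, midgut, Malpighian tubule and fat body, and none covered the testis. The neuronal markers elav and ChAT were at 0 in all libraries, and 1 of 6 tested was higher, Snap25, which held most of that list's 121 to 294 CPM in control and 1750 to 4085 CPM in tumor. Midgut markers summed to at most 0.492 CPM in any library, with none tested and with Jon65Aiii and Amy-d at 0. Of 4 tested Malpighian tubule markers 1 was higher and 2 lower, at 117 to 137 against 156 to 168 CPM with Uro at 0. The gene holding most of the tubule list's sum changed, from Ncc69 in control to bb8 in tumor. Only bb8 was called higher in this list, and whether bb8 marks tubule cells was not tested. Ncc69 fell from 3471 and 3506 counts to 420 and 458, while bb8 rose from 810 and 1027 to 6975 and 7043. Of 4 tested fat body markers none passed, at 156 to 160 against 172 to 188 CPM with Lsp1beta at 0. Desat1, which was not called, made up most of the fat body sum in every library. These 2 sums thus mainly follow single genes. In bulk RNA, fewer cells of a type and less RNA per cell cannot be told apart, and the part of cell makeup in the V-ATPase values was not tested.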

How the data were processed

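RNA of 2 control and 2 tumor ovary libraries was used, grouped by sample title. Kallisto made the values, per the submitters' processing notes; no version, annotation or strand setting is given in the sources used here. Per gene the authors deposited an estimated count, a TPM value, a target length and an effective length, per the file headers. Against the Ensembl annotation of BDGP6.54, the source of all coordinates, target lengths equal the gene span plus 4000 bases for 17551 of 17668 annotated genes (99.3%). Locus sums were added from these estimated counts and tested with the same library sizes and genes.

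Rounded estimated counts were fitted with edgeR 4.0.16 in R 4.3.3 (filterByExpr, TMM factors, glmQLFit, glmQLFTest on group, two-sided, Benjamini-Hochberg adjustment over all 9402 genes tested, threshold 0.05). The fit's biological coefficient of variation was 0.36, and at 41248098 to 50971937 counts per library the spread between replicates, not counting error, limits most values. P-values measure the spread between these libraries only. The floor of 3 counts covers counting error only. The fitting step was tested on simulated data. Alternatives were other scalings, filters and thresholds, DESeq2 1.42.0, limma 3.58.1 (voom, and trend on log2(TPM + 1), log2(TPM + 0.1) and log2(TPM + 5)), a replicate block, leaving out each library, and locus sums. Tables and figures were made in Python 3.11.15 with matplotlib 3.10.9, numpy 2.4.6 and pandas 2.3.3.

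The V-ATPase genes, the division into broad subunits and paralogs and all lists were chosen with earlier results of these data known. All V-ATPase genes are accounted for. Of other lists, Mitf, Rbcn-3A, Rbcn-3B and per list at most 4 genes past the threshold, those of smallest adjusted p, are named, and for marker lists up to 2 of the highest genes and those at 0. The gene mtd was added after its values were seen.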

Additional observations from a re-analysis of the deposited data

How the results depend on the processing

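The main limits are 2 libraries per group, target overlap and the scale. Under DESeq2 size factors, the filter of 50 counts in 2 libraries, DESeq2 and limma-voom, counts stayed within 1.5 times their reported value, except that the TORC1 list had 3 higher members under DESeq2 size factors and 8 under DESeq2, against 5. Under library totals 2 V-ATPase genes were higher and 3 lower, of which 1 and 1 were broad. Scaling to ribosomal protein genes gave 11 higher and 2 lower among the V-ATPase genes (broad 9 and 1, paralogs 2 and 1) and 4426 and 902 among all genes, with medians of 0.40 for broad subunits and 0.35 for paralogs. It turned the sign of Vha14-1 (0.25), Vha14-2 (0.45), Vha68-3 (0.25), Vha55 (0.30), VhaPPA1-1 (0.45), Vha100-2 (0.39), Vha36-1 (0.63), Vha16-1 (0.34), Vha68-2 (0.40), Vha26 (0.53) and VhaAC39-1 (0.36). With no filter on low counts 2 V-ATPase genes were lower, 1 broad and 1 a paralog.

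On log2(TPM + 1), log2(TPM + 0.1) and log2(TPM + 5) alike, 4 V-ATPase genes were higher and 3 lower, of which broad subunits made 2 and 1 and paralogs 2 higher. Medians of broad subunits were -0.0055, -0.0055 and -0.0054, and those of paralogs -0.018, -0.032 and -0.0061. With no filter on log2(TPM + 1), 2 were higher and 3 lower, broad subunits 1 and 1, all genes lower 1314, and the medians -0.0055 and -0.018.

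On locus sums 0 V-ATPase genes were higher, 5 broad subunits and 1 paralog were lower, and Vha16-5 turned to -0.48. At an adjusted p below 0.01, 2 V-ATPase genes were lower, 1 broad and 1 a paralog, with 992 higher and 851 lower among all genes.

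Deviations of libraries with the same replicate number correlated at -0.014 over genes, so the numbers are not treated as a pairing. With the replicate number as a block, 1 V-ATPase gene was higher and 2 were lower, 1 broad and 1 a paralog, with 1533 higher and 1305 lower among all genes. Vha55, Vha16-1 and VhaM9.7-c then had adjusted p of 0.078, 0.107 and 0.095.

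When each library was left out in turn, a lone library in a group being assumed to vary like the other group, 0 to 1 V-ATPase genes were higher and 2 to 3 lower. Broad subunits had 0 higher and 1 to 2 lower, and paralogs 0 to 1 higher and 1 to 1 lower. Among all genes 1095 to 1495 were higher and 760 to 1507 lower. The medians ranged from -0.38 to -0.11 for broad subunits and from -0.62 to -0.054 for paralogs (-0.054 without tumor 1).

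Over all alternatives the lysosomal list had 3 to 13 members higher, the endosome list 0 to 16, the TORC1 list 2 to 13, the autophagy list 3 to 12 and the carriers 0 to 3. Lower members numbered 2 to 3, 0 to 3, 1 to 4, 1 to 4 and 4 to 6, and regulators had 0 to 2 higher and 0 to 1 lower. Vha100-2 held 79.1% of the a family in control and 75.8% in tumor on TPM, and levels between genes kept Vha16-1 first on both scales.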
